A study of Rattus norvegicus with 15 samples.

Results

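The BCL2 family death and survival genes are described here in cultured rat spermatogonial stem cells that lost and regained GDNF, as 10 genes: Bik, Bid, Bad, Bbc3, Bcl2l11, Mcl1, Bcl2, Bcl2l1, Bax and Bak1. The members were taken by name, as every probe set (the group of short probes that reports 1 transcript on the array) whose only gene symbol in the array annotation is one of these 10. Of 14218 genes named in this way, the 10 members supplied 9 with a probe set, on 15 of 31099 probe sets, and 7 members on 10 probe sets could be tested. Bax had no value, because its 1 probe set carried 2 symbols. Bcl2 and Bak1 lay under the low-value level of 16 intensity units (4 on the log2 scale) on each of the 15 arrays, and a probe set was tested only where at least 3 of the 15 arrays reached that level.

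Proteins of the BCL2 family decide whether the outer membrane of the mitochondrion stays closed or is opened during apoptosis. Survival proteins such as BCL2, BCL-XL (encoded by Bcl2l1) and MCL1 hold the pore-forming effectors BAX and BAK in check, and the BH3-only proteins, among them BIK, BID, BAD, PUMA (encoded by Bbc3) and BIM (encoded by Bcl2l11), bind the survival proteins or the effectors and tip the balance towards opening. In the testis this family sets how many germ cells survive, and GDNF, a ligand of the RET receptor made by Sertoli cells, is the factor that spermatogonial stem cells need for self-renewal in culture.

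The cells were rat germline stem cells expanded for 1 month in serum-free medium with GDNF, and single-colour arrays were made from total RNA of 3 independent cultures in each of 5 groups, 15 arrays in all. The control group had GDNF throughout, the withdrawal group was without GDNF for 18 h, and the other 3 groups had 18 h without GDNF and then GDNF again for 2, 4 or 8 h, called 2 h, 4 h and 8 h of return below. The labels give no strain, age or number of animals behind the cultures. The design text places the control before withdrawal, while the treatment protocol lists it as a treatment, and its harvest time is not stated. The return groups had 2, 4 or 8 h more after the start of withdrawal than the withdrawal group. GDNF and hours in culture therefore cannot be told apart in the comparisons between return and withdrawal, nor, as far as the control was taken earlier, in those with control.

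The deposited values are intensities on a linear scale, and tests were made on their log2. The arrays were close to each other in scale, where 50.2% to 50.5% of the probe sets reached the low-value level, with a median log2 of tested probe sets between 8.05 and 8.11. Of 18 markers of undifferentiated spermatogonia 11 were tested, among them Ret, Itga6, Epcam, Uchl1 and Cd9, while the defining markers Gfra1, Zbtb16, Nanos2, Nanos3, Lin28a, Utf1 and Thy1 were not tested. Of those 11, 7 were lower and 3 higher on withdrawal, Foxo1 among the latter. Of all tested probe sets, 9.67% were called lower and 11.4% higher in that comparison. Mesenchymal markers (11 of 18 tested) were present on all arrays, with summed intensities from 5329 to 7006 in controls, 3878 to 6392 on withdrawal, 3557 to 3992 at 2 h, 3865 to 5229.8 at 4 h and 5724.5 to 6885 at 8 h. Against withdrawal, 5 of these 11 were called lower and 0 higher at 2 h, where 14.2% of all tested probe sets were called lower and 11.9% higher. At 4 h 1 was lower and 0 higher, and at 8 h 1 was higher and 0 lower. Within groups, no tested member followed the mean of these markers at the limma threshold (adjusted p from 0.607 to 0.972), while 448 probe sets did. Slopes within groups do not measure the shift between groups. Germ cell markers (2 of 6 tested) averaged 13425 (Sycp3) and 5096 (Tex14) over the 15 arrays. Markers of differentiating spermatogonia and meiosis (3 of 8 tested) averaged 1454.5 (Sohlh1), 286 (Sycp1) and 125 (Kit). Sertoli markers (4 of 10 tested) averaged 3316 (Clu), 93.7 (Rhox5), 25.6 (Dhh) and 23.0 (Wt1). For actin, the log2 gap between the 3' and 5' control probe sets, a sign of RNA integrity, was 1.93 to 2.09 in controls and 2.17 to 2.24 on withdrawal. The same gap of GAPDH was -0.20 to -0.18 in controls, -0.15 to -0.10 on withdrawal and -0.27 to -0.25 at 2 h, and that of hexokinase 2.45 to 2.55, 2.39 to 2.45 and 2.12 to 2.32. At 4 h and 8 h the GAPDH gap was -0.175 to -0.123 and -0.174 to -0.132, and the hexokinase gap 2.142 to 2.265 and 2.209 to 2.498. The actin gap was 1.97 to 2.12 at 2 h, 2.01 to 2.23 at 4 h and 1.98 to 2.16 at 8 h. Their part in the results was not tested. In RNA from whole cultures, fewer cells of a type and less RNA per cell cannot be told apart.

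Promoter sequence was read for the 250 bases before each gene's start in RefSeq (rat assembly GRCr8), where 7 of the 10 members had an entry, on 10 windows. Bik, Bbc3 and Bax had no entry, so their promoters were not searched. Both strands were searched for 5 short motifs: the FOXO core GTAAACA (in 3.21% of 33469 rat promoter windows), the E2F word TTTCCCGC (in 0.813%), the ETS core CCGGAAG (in 7.27%), the EGR word GCGTGGGCG (in 0.478%) and the AP1 word TGACTCA (in 4.05%). The FOXO core was found in the windows of Bad and Bcl2l11, and the ETS core in those of Bcl2l11, Mcl1 and Bcl2l1. The E2F, EGR and AP1 words were in none of the 10 windows read. These letters are descriptions and no evidence that a factor binds there. The windows shown hold a motif and belong to members whose brightest probe set passed the limma threshold on return against withdrawal. Bcl2l1 is not shown, because only the dimmer of its 2 tested probe sets passed. The Bcl2l11 window is given whole because it alone held 2 of the motifs: GRCr8 chr3:135819792-135820041, plus strand, 72% G and C against a median of 51.2% over all promoter windows. In it the capitals mark the FOXO core, 204 bases before the start, and then the ETS core read on the other strand, 82 bases before the start. For Bad (chr1:213562986-213563012, plus strand) the capitals mark the FOXO core on the other strand, 118 bases before the start, and for Mcl1 (chr2:185908025-185908051, plus strand) the ETS core, 133 bases before the start.
Bcl2l11: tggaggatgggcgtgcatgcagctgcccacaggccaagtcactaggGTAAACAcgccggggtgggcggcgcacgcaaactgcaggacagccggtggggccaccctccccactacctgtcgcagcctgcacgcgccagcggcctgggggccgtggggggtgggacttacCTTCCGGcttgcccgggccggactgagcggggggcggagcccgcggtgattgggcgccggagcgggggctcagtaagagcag
Bad: atcactaagcTGTTTACagagttttca
Mcl1: gagcactcagCCGGAAGagccacggag

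Over the 5 groups, 6 of the 7 tested members differed by the limma F test, with Bcl2l1 the exception (adjusted p = 0.237), against 49.6% of all 15856 tested probe sets. Bik had the widest range of group means of the 7, 2.03 on the log2 scale, and was 49th of 15856 by its F test (adjusted p = 3.42e-09). By the same rule of 1 probe set per gene, the ranges of the other 6 lay between 0.20 (Bcl2l1) and 0.55 (Mcl1). Dimmer probe sets had wider ranges for Bid (0.59) and for Bcl2l1 (0.74), and that of Bcl2l1 passed the F test (adjusted p = 0.00935). After 18 h without GDNF, Bik and Bbc3 were higher and Bid and Mcl1 lower than in controls, 2 of 7 members each way, where 11.4% of tested probe sets were called higher and 9.67% lower. The median log2 difference of the 7 members was 0.04, and that of all tested probe sets 0.01.

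**Figure D1:**
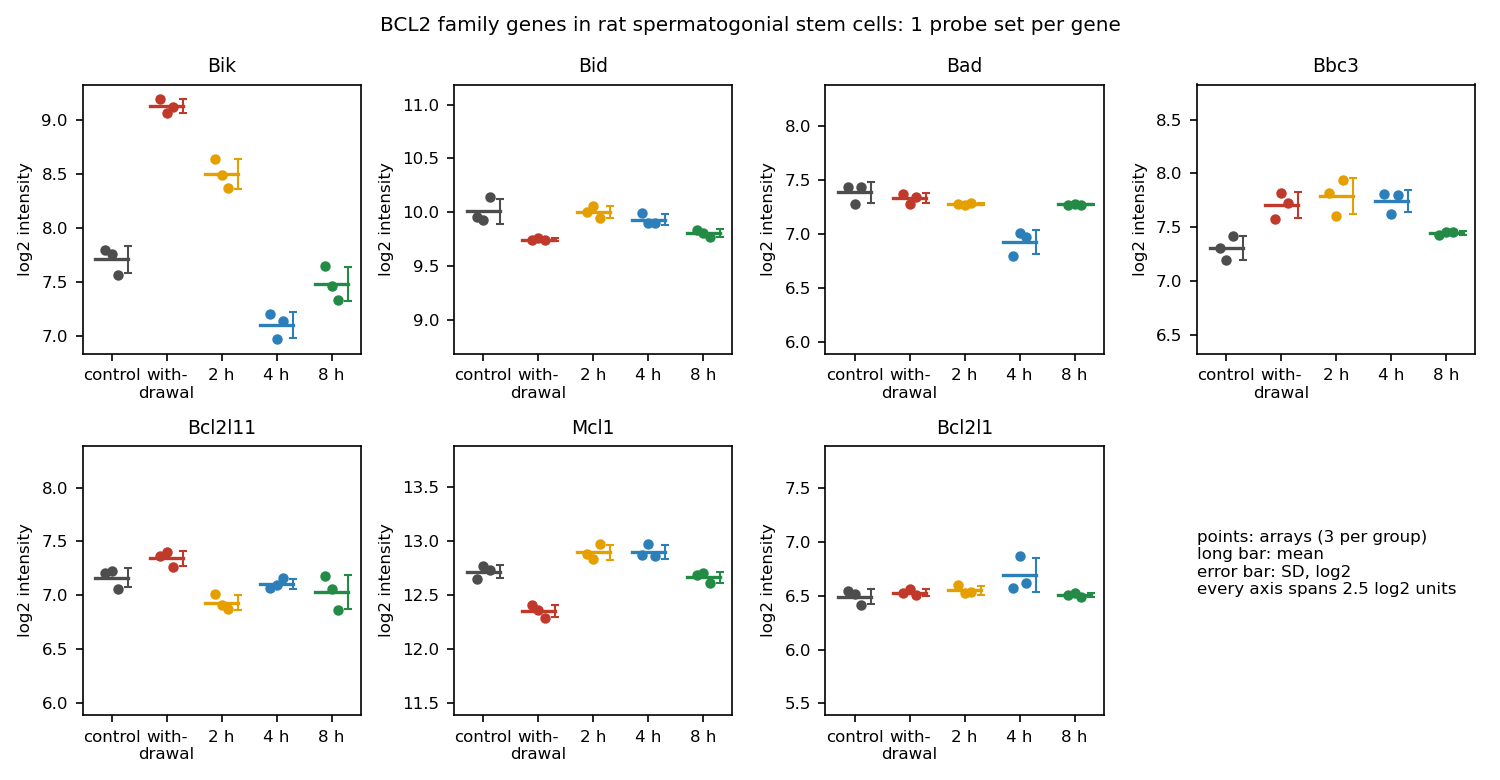
Log2 intensity (vertical axis) of the 7 tested members in the 5 groups, 1 probe set per gene. Points are arrays, long bars are means and error bars are SD over 3 arrays, and each axis spans 2.5 log2 units at its own level. Bik ranges from a mean of 9.13 on withdrawal to 7.10 at 4 h of return, and the other members move within a much narrower band.

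Bik, whose product sits in the endoplasmic reticulum membrane and binds the survival proteins, was the member with the largest response. Its intensity (probe set 1387249_at) was 223, 217 and 189 in the 3 controls and 588, 536 and 558 after withdrawal. At 2 h of return it was 399, 361 and 331. At 4 h it was 147, 125 and 140.5, and at 8 h 201, 176 and 161. The withdrawal arrays were the highest of the 15 and the 4 h arrays the lowest, and only the control and 8 h arrays overlapped. Mean intensities were 209.6 ± 17.8 in controls, 561 ± 25.8 on withdrawal, 364 ± 34.3 at 2 h, 137 ± 11.1 at 4 h and 179.6 ± 20.0 at 8 h (SD, n = 3 each).

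Bik was 2.68-fold higher on withdrawal than in controls (95% interval 2.32 to 3.09), a log2 difference of 1.42 ± 0.10 (SE) with a limma adjusted p of 8.18e-08. That was the 8th largest rise of 15856 tested probe sets. At 2 h of return it was 1.55-fold lower than on withdrawal (log2 -0.63 ± 0.10, adjusted p = 0.000328), and it was then still 1.73-fold above control (adjusted p = 3.46e-05). At 4 h it stood 4.09-fold below withdrawal (log2 -2.03 ± 0.10, interval of the fold 3.54 to 4.71, adjusted p = 8.97e-10), which was the largest fall of the 15856 in that comparison. The 4 h level was also 1.52-fold below control (adjusted p = 0.000408). At 8 h Bik was 3.13-fold below withdrawal (log2 -1.65 ± 0.10, adjusted p = 1.66e-08, the 3rd largest fall), and 1.30-fold above its 4 h level (adjusted p = 0.0213). Between 8 h and control the log2 difference was -0.23 with a 95% interval from -0.43 to -0.02, and it did not pass the threshold (adjusted p = 0.151). The order of levels was therefore withdrawal, 2 h, control, 8 h and 4 h, in which each neighbouring pair differed except control and 8 h.

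Bid encodes a BH3-only protein that caspase 8 cleaves, linking death receptors to the mitochondrion. Its brighter probe set (1377759_at) read 994, 974 and 1128 in controls, 854, 865 and 856 on withdrawal, 1024, 1064 and 985 at 2 h, 1018, 955 and 956 at 4 h, and 915, 898 and 872 at 8 h. The 3 withdrawal arrays were the lowest of the 15, and no other group overlapped them. Bid fell 1.20-fold on withdrawal (log2 -0.26 ± 0.05, adjusted p = 0.00282), then was 1.19-fold above withdrawal at 2 h (adjusted p = 0.00329) and 1.14-fold above it at 4 h (adjusted p = 0.017). At 8 h the difference from withdrawal was 0.06 on the log2 scale (interval -0.06 to 0.17, adjusted p = 0.461).

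The second Bid probe set (1369683_at) gave larger differences in the same direction. It read 474, 412 and 447 in controls against 308, 305 and 274 on withdrawal, a 1.50-fold fall (log2 -0.59 ± 0.07, adjusted p = 4.75e-05), and was 1.50-fold, 1.39-fold and 1.31-fold above withdrawal at 2, 4 and 8 h (adjusted p = 6.02e-05, 0.000188 and 0.00115). The 2 probe sets thus differed in call at 8 h against withdrawal. The 4 h call of the brighter set was lost without 4 h replicate 1 (adjusted p = 0.0677) and without 3 arrays together, replicate 1 of control, withdrawal and 4 h (0.114).

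Bad encodes a BH3-only protein that survival kinases keep inactive by phosphorylation. It read 174, 155 and 174 in controls, 165, 155 and 163 on withdrawal, 155, 154 and 156 at 2 h, 111, 129 and 126 at 4 h, and 155, 155 and 155 at 8 h (probe set 1386991_a_at). The 3 arrays of the 4 h group were the lowest of the 15 and overlapped no other group. Bad was 1.32-fold lower at 4 h than on withdrawal (log2 -0.40 ± 0.07, adjusted p = 0.000687), and 1.37-fold lower than in controls (adjusted p = 0.000407). It was 1.27-fold higher at 8 h than at 4 h (adjusted p = 0.00707). The difference between withdrawal and control was -0.05 on the log2 scale (interval -0.21 to 0.10, adjusted p = 0.656).

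Bbc3 encodes PUMA, a BH3-only protein best known as a target of p53. It read 159, 147 and 171 in controls, 191, 225 and 212 on withdrawal, 226, 195 and 245 at 2 h, 225, 197 and 223 at 4 h, and 172, 175 and 176 at 8 h (probe set 1382993_at). The withdrawal, 2 h and 4 h arrays overlapped each other and lay above all control and 8 h arrays. Bbc3 rose 1.32-fold on withdrawal (log2 0.40 ± 0.09, adjusted p = 0.00664), and was 1.39-fold and 1.35-fold above control at 2 h and 4 h of return (adjusted p = 0.00174 and 0.00361). Against withdrawal the differences were 0.08 at 2 h and 0.04 at 4 h on the log2 scale, with intervals from -0.12 to 0.28 and from -0.16 to 0.24. At 8 h it was -0.26 against withdrawal (adjusted p = 0.0515), and 1.27-fold below its 2 h level (adjusted p = 0.0136). Without withdrawal replicate 1 the 8 h difference from withdrawal was -0.33 and passed the threshold (adjusted p = 0.0337).

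Bcl2l11 encodes BIM, the BH3-only protein that growth factor loss raises in many cell types. It read 147, 149 and 134 in controls, 165, 169 and 154 on withdrawal, 129, 120.2 and 117 at 2 h, 134, 137 and 143 at 4 h, and 145, 133 and 116 at 8 h (probe set 1388742_at). The withdrawal arrays were the 3 highest of the 15 and overlapped no other group. Bcl2l11 was 1.33-fold lower at 2 h than on withdrawal (log2 -0.41 ± 0.09, adjusted p = 0.00293) and 1.24-fold lower at 8 h (log2 -0.31 ± 0.09, adjusted p = 0.0153). At 4 h it was 1.18-fold lower (adjusted p = 0.0496). The rise on withdrawal, 0.18 on the log2 scale with an interval from -0.0028 to 0.36, did not pass the threshold (adjusted p = 0.157).

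The later Bcl2l11 calls depended on single arrays. The 4 h call was lost when withdrawal replicate 1 or 2 or any 1 of the 4 h arrays was left out (adjusted p from 0.0646 to 0.145), and after median centring (0.0643). The 8 h call was lost without withdrawal replicate 2 (0.0578) or 8 h replicate 3 (0.0778), with only the groups compared in the fit (0.059), and with replicate 1 of control, withdrawal and 4 h left out together (0.0584). Of the other Bcl2l11 probe sets, 1387338_s_at reached at most 15.3 intensity units and 1370787_at at most 4.41, both under the low-value level on all arrays.

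Among the survival genes, Mcl1, whose short-lived product many cells need to stay alive, moved on withdrawal in the direction opposite to Bik. It read 6428, 6982 and 6791 in controls, 5434, 5247 and 5008 on withdrawal, 7556, 7313 and 8025 at 2 h, 7487, 8067 and 7425 at 4 h, and 6578, 6668 and 6242 at 8 h (probe set 1372520_at). The withdrawal arrays were the lowest of the 15, the 2 h and 4 h arrays the highest, and controls and 8 h arrays overlapped between them. Mcl1 fell 1.29-fold on withdrawal (log2 -0.36 ± 0.05, adjusted p = 6.58e-05). It was 1.46-fold above withdrawal at 2 h (log2 0.54 ± 0.05, adjusted p = 1.76e-06) and likewise 1.46-fold at 4 h (log2 0.55 ± 0.05, adjusted p = 6.3e-07), and 1.24-fold above it at 8 h (adjusted p = 0.000217). Its levels at 2 h and 4 h were also above control, by 1.13-fold (adjusted p = 0.0128) and 1.14-fold (adjusted p = 0.0113).

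The second Mcl1 probe set (1370141_at) ranged from 984 to 1112 in controls, 846 to 903 on withdrawal, 1179.8 to 1208 at 2 h, 1206 to 1231 at 4 h and 1083 to 1110.0 at 8 h. It was called in the same direction as the first in withdrawal against control and at 2, 4 and 8 h against withdrawal, with log2 differences of -0.29, 0.46, 0.49 and 0.33. Neither set was called between 8 h and control (-0.05 and 0.04 on the log2 scale, adjusted p = 0.539 and 0.656).

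**Figure D2:**
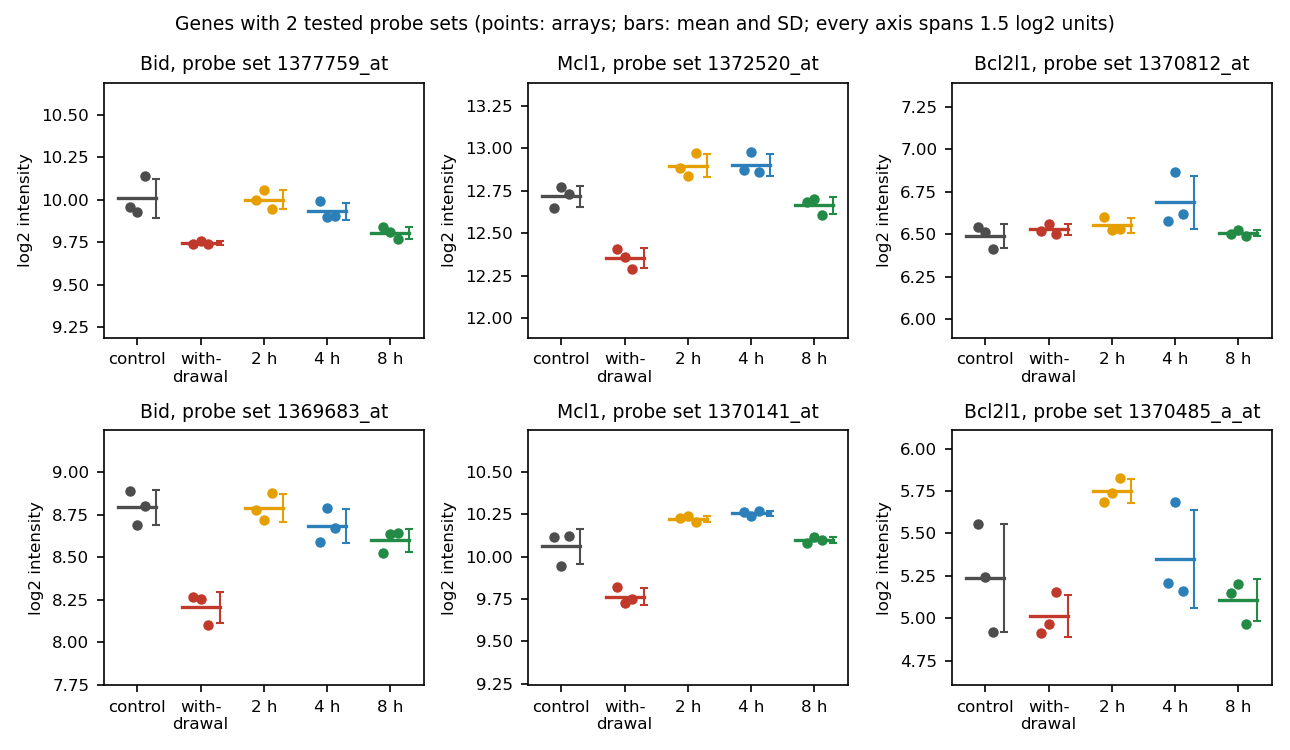
Log2 intensity (vertical axis) of both tested probe sets of Bid, Mcl1 and Bcl2l1 in the 5 groups. Points are arrays, bars are the mean and SD over 3 arrays, and each axis spans 1.5 log2 units. The Bid and Mcl1 pairs share their dip on withdrawal, while Bcl2l1 rises at 2 h in 1370485_a_at (mean 5.75 against 5.01 on withdrawal) and did not pass the threshold in 1370812_at (6.55 against 6.53).

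Bcl2l1, which encodes the survival protein BCL-XL and by splicing its pro-death form, gave different results in its 2 tested probe sets. The brighter one (1370812_at) read 93.4, 91.3 and 85.3 in controls, 91.8, 94.6 and 90.8 on withdrawal, 97.0, 92.1 and 92.5 at 2 h, 95.4, 117 and 98.4 at 4 h, and 90.6, 92.3 and 90.0 at 8 h. The arrays other than 4 h replicate 2 lay between 85.3 and 98.4, and no comparison passed the threshold. The interval of its withdrawal difference from control ran from -0.14 to 0.22 on the log2 scale.

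The dimmer set (1370485_a_at) read 47.0, 37.8 and 30.3 in controls, 30.2, 31.3 and 35.6 on withdrawal, 51.5, 53.3 and 56.8 at 2 h, 36.9, 51.4 and 35.8 at 4 h, and 35.5, 36.9 and 31.3 at 8 h. The 2 h arrays were the 3 highest, with 4 h replicate 2 just under the lowest of them. This set was 1.67-fold higher at 2 h than on withdrawal (log2 0.74 ± 0.16, adjusted p = 0.00342) and 1.42-fold higher than in controls (adjusted p = 0.0297). With the mean of both sets as the gene's value, the 2 h difference from withdrawal was 0.38 (adjusted p = 0.0238). The third set, 1369180_at, stayed at or under 4.56 intensity units.

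Bcl2, the founding survival gene, had a single probe set between 5.60 and 5.74 intensity units on the 15 arrays. Bak1, which encodes the effector BAK, had one between 4.44 and 4.57. Both are under the low-value level, where these intensities depend on the background estimate, so nothing about a change in either gene can be read from them. Neither of the member effectors, Bax and Bak1, was therefore measured by a probe set that could be tested.

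Set side by side by role, the 4 called members split on withdrawal within the BH3-only group, with Bik and Bbc3 higher and Bid lower, while the survival gene Mcl1 was lower. At 2 h of return Bid and Mcl1 were higher than on withdrawal and Bik and Bcl2l11 lower, where 11.9% of tested probe sets were called higher and 14.2% lower. At 4 h the same 2 were higher and Bik, Bad and Bcl2l11 lower, against 14.6% and 16.0% of tested probe sets. At 8 h Mcl1 was higher and Bik and Bcl2l11 lower than on withdrawal, against 9.62% and 15.4%. The withdrawal arrays are common to these comparisons, so agreement between them is no separate observation.

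The members' median log2 differences from withdrawal were 0.02, 0.04 and -0.06 at 2, 4 and 8 h, and those of all tested probe sets -0.02, -0.01 and -0.02. At 8 h of return against control, Bid was lower (1.15-fold, log2 -0.20 ± 0.05, adjusted p = 0.0226) and the other 6 tested members were not called, against 4.83% of tested probe sets called higher and 7.49% lower. At an unadjusted p under 0.05, 0 members were higher in that comparison and 2 lower. The Bid call was lost without control replicate 3 (adjusted p = 0.0952), 8 h replicate 2 (0.0577) or 8 h replicate 3 (0.0829), and its second probe set was not called (adjusted p = 0.105). The split over all tested probe sets depended on scaling. After median centring of the arrays, the calls against withdrawal became 2185 higher and 1950 lower at 2 h (1888 and 2249 before), 2666 and 2159 at 4 h (2314 and 2534 before) and 1961 and 1915 at 8 h (1526 and 2437 before). At 8 h against control, 766 higher and 1187 lower became 1028 and 939. After quantile normalization lower calls outnumbered higher ones at 8 h in both comparisons, at 1763 higher and 2154 lower against withdrawal and 927 and 1057 against control.

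**Figure D3:**
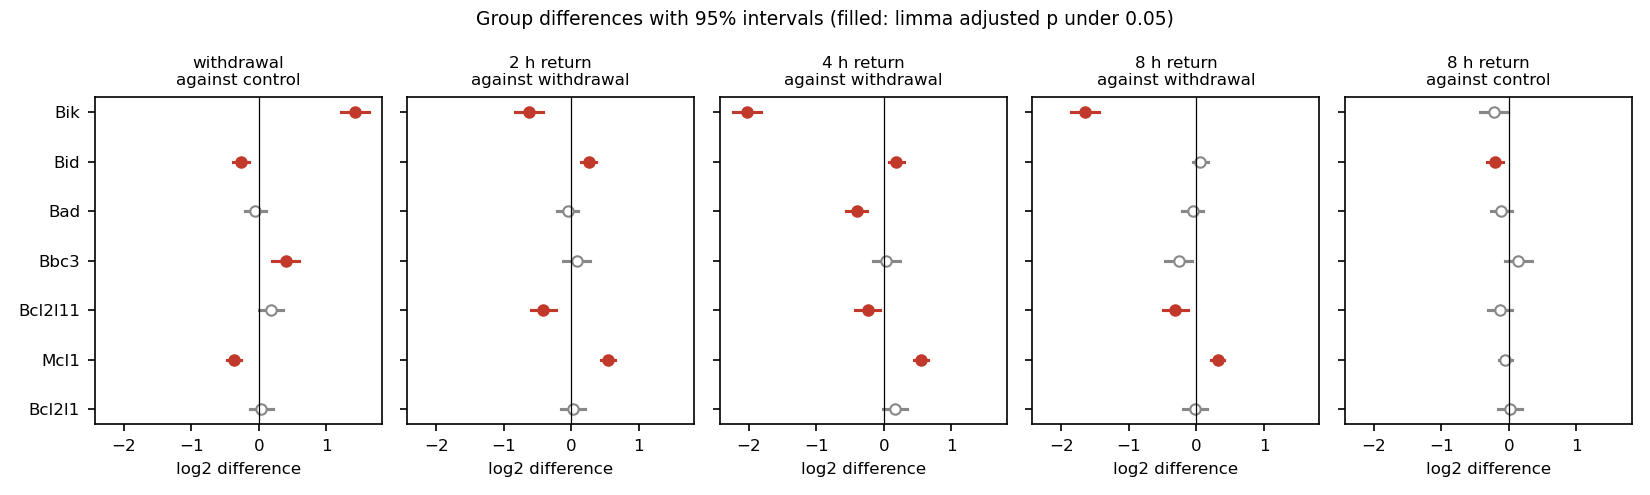
Log2 difference between groups (horizontal axis) for the 7 tested members in 5 comparisons, with bars for the 95% interval of the limma fit. Filled points passed an adjusted p of 0.05. Bik lies farthest from 0 in all 5 panels, at 1.42, -0.63, -2.03, -1.65 and -0.23. Only Bid, at -0.20, is filled in the last panel.

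The other genes of the pathway were taken from 8 lists. Transcription factors known to control BH3-only genes had 12 of 17 members tested. On withdrawal 3 rose and 0 fell at the threshold (0 fell at an unadjusted p under 0.05 too), with a list median of 0.01 beside 0.01 for all tested probe sets, of which 11.4% were called higher and 9.67% lower. Foxo3, a factor that growth factor signalling through AKT keeps out of the nucleus, rose 2.93-fold from 215 ± 11.3 to 630.0 ± 32.6 (SD, n = 3, adjusted p = 5.11e-09). Foxo1, its relative with a known part in spermatogonial stem cells, rose 1.31-fold (adjusted p = 0.00366), while its second probe set was not called (log2 0.26, adjusted p = 0.452). Smad3, which carries TGF-beta signals, rose 1.32-fold (adjusted p = 0.0102).

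Of these 12 factors, 5 fell and 1 rose at 2 h against withdrawal (median -0.24), 6 fell and 0 rose at 4 h (median -0.24, with 1 higher at an unadjusted p under 0.05, and 1 called higher after median centring), and 5 fell and 1 rose at 8 h (median -0.16). Among all tested probe sets too, lower calls outnumbered higher ones at these times, with 14.2% and 11.9% at 2 h, 16.0% and 14.6% at 4 h, and 15.4% and 9.62% at 8 h. Foxo3 stood at 421 ± 49.6 at 2 h, 263 ± 15.4 at 4 h and 236 ± 9.86 at 8 h, 1.50-fold, 2.40-fold and 2.67-fold below withdrawal (adjusted p = 0.000136, 2.93e-08 and 1.55e-08). Ddit3, a stress factor that lies upstream of several BH3-only genes, rose 1.46-fold at 2 h (adjusted p = 0.00148). E2f1 and Mybl2, both tied to the cell cycle, were 1.25-fold and 1.32-fold lower at 4 h (adjusted p = 0.011 and 0.0056), while the second Mybl2 probe set was 0.12 on the log2 scale and not called. At 8 h against control 1 factor was lower, Stat5b (1.32-fold, adjusted p = 0.0295), and Foxo3 was not called (adjusted p = 0.312).

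Kinases, phosphatases and 14-3-3 proteins that act on BAD had 16 of 18 members tested. On withdrawal 1 rose, Pak1 (1.14-fold, adjusted p = 0.0136), and 2 fell, Akt1 (1.19-fold, adjusted p = 0.017) and Sfn (2.03-fold, adjusted p = 8.95e-07), where 11.4% and 9.67% of all tested probe sets were called higher and lower. The second probe sets of Pak1 and Akt1 were not called (adjusted p = 0.579 and 0.0524). Those of the 14-3-3 genes Ywhaz, Ywhab and Ywhaq were called lower (log2 -0.24, -0.17 and -0.13, adjusted p = 0.00296, 0.0285 and 0.0326), while their brightest sets were not called. At an unadjusted p under 0.05, 7 of the 16 were lower and 1 higher on withdrawal. Return gave 5 higher and 2 lower at 2 h, 6 higher and 0 lower at 4 h (4 higher after quantile normalization, and 1 lower at an unadjusted p under 0.05), and 1 each way at 8 h (3 higher after median centring). Their medians against withdrawal were 0.04, 0.12 and 0.04. Ppp3cb, counted as higher at 2 h and 4 h, had 2 other probe sets that were not called (log2 -0.05 and -0.06 at 2 h, -0.07 and -0.09 at 4 h). The 2 lower at 2 h were Ywhab and Ppp3ca, whose second sets were not called (log2 -0.02 and -0.19, adjusted p = 0.816 and 0.356). The list pools kinases with phosphatases, so its counts give no direction for BAD. The shares of all tested probe sets called higher and lower were 11.9% and 14.2% at 2 h, 14.6% and 16.0% at 4 h, and 9.62% and 15.4% at 8 h.

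Sfn, which encodes the 14-3-3 sigma protein, had the largest differences of any tested gene on the 8 lists at each return time against withdrawal. Its intensity went from 76.5 ± 8.50 in controls to 37.6 ± 2.04 on withdrawal, 257 ± 1.88 at 2 h, 636 ± 46.8 at 4 h and 150.1 ± 5.74 at 8 h. The 4 h level was 16.9-fold above withdrawal (log2 4.08 ± 0.09, adjusted p = 1.01e-13), and the 8 h level 1.97-fold above control (adjusted p = 4.2e-06). Pim3, a kinase that phosphorylates BAD, was 1.62-fold above withdrawal at 2 h (adjusted p = 5.46e-06). Rps6ka3, another such kinase, was 1.30-fold above it at 4 h by its brightest probe set (adjusted p = 0.00376) but not by the other 2 (log2 0.09 and 0.21, adjusted p = 0.875 and 0.059). At 2 h, where it is counted among the 5 higher, those 2 sets were at -0.74 (adjusted p = 0.108) and -0.59 (adjusted p = 0.000114), so its direction there is not settled.

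The remaining BCL2 family genes had 7 of 15 members tested. On withdrawal 2 rose and 2 fell (median 0.12): Bok, an effector-like relative of BAX, rose 1.38-fold (adjusted p = 0.0177, its second probe set 0.11 on the log2 scale and not called), and Bnip3, which marks mitochondria for removal, rose 1.21-fold (adjusted p = 0.0209). Bcl2l2, a survival gene also called Bcl-w that male fertility requires in mice, fell 1.21-fold (adjusted p = 0.0319), and Becn1, an autophagy gene with a BH3 domain, fell 1.16-fold (adjusted p = 0.000658). Against withdrawal, 0 rose and 2 fell at 2 h, 1 rose and 1 fell at 4 h, and 1 rose and 2 fell at 8 h, with medians of -0.14, -0.14 and -0.15. Of all tested probe sets, 11.4% were called higher and 9.67% lower on withdrawal. On return these shares were 11.9% and 14.2% at 2 h, 14.6% and 16.0% at 4 h, and 9.62% and 15.4% at 8 h. Counts of 1 or 2 in 7 show nothing particular to the list beside these shares. At 2 h, 0 were higher at an unadjusted p under 0.05. Bnip3 was lower at each return time (1.23-fold, 1.33-fold and 1.34-fold, adjusted p = 0.0129, 0.00108 and 0.00105). Bcl2l2 rose to 369 ± 21.9 at 8 h from 252 ± 2.59 on withdrawal (1.46-fold, adjusted p = 0.000261), and was then 1.21-fold above control (adjusted p = 0.0456).

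**Figure D4:**
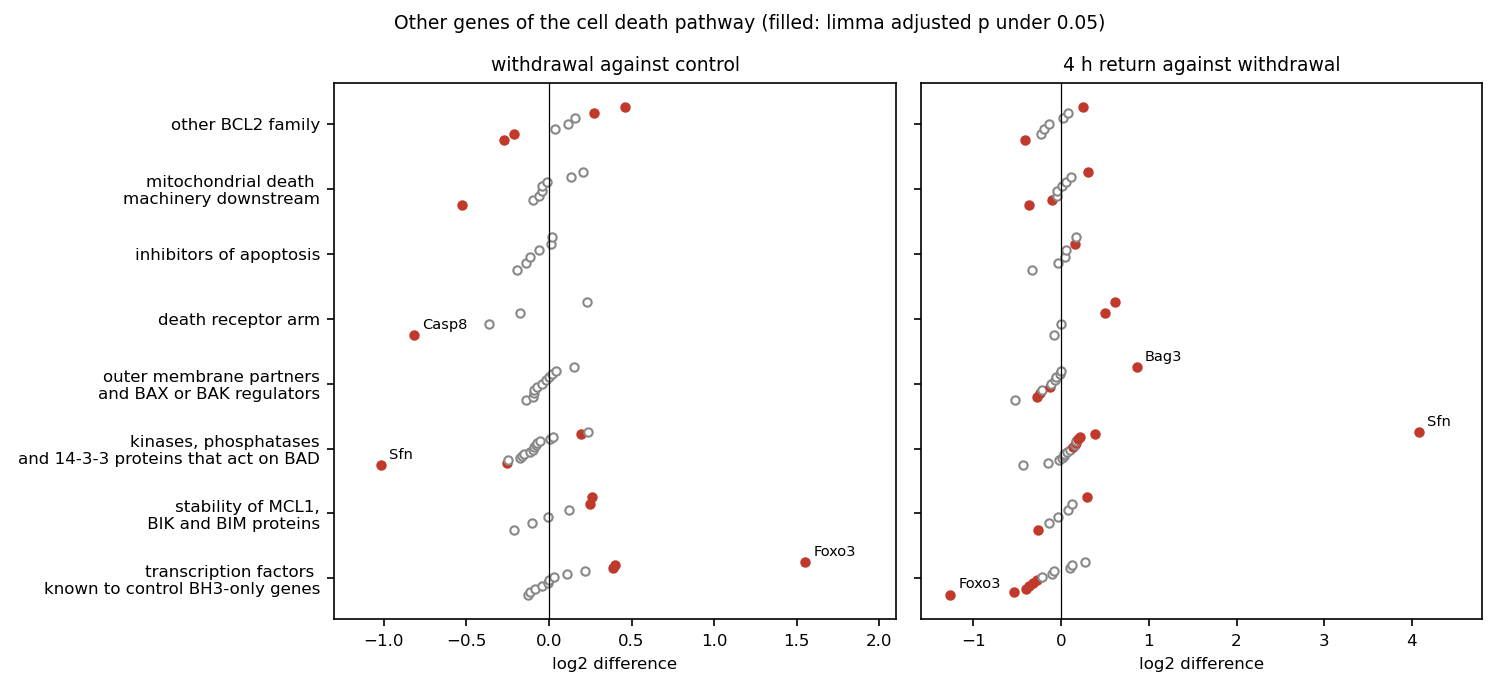
Log2 difference (horizontal axis) of each tested gene on the 8 pathway lists (rows), for withdrawal against control and for 4 h of return against withdrawal. Filled points passed a limma adjusted p of 0.05. Foxo3 lies farthest right on withdrawal, at 1.55, and farthest left at 4 h, at -1.26, and Sfn reaches 4.08 at 4 h.

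The mitochondrial death machinery that acts after the BCL2 proteins had 8 of 12 members tested. On withdrawal 1 fell and 0 rose: Casp6, an executioner caspase, fell 1.44-fold from 244 ± 14.7 to 169 ± 15.8 (adjusted p = 0.000173). It was 1.24-fold above withdrawal at 4 h (adjusted p = 0.00654) and 1.33-fold above it at 8 h (adjusted p = 0.00108). Htra2, a mitochondrial protease that is released with cytochrome c, was 1.48-fold below withdrawal at 2 h (adjusted p = 0.00121) and 1.29-fold at 4 h (adjusted p = 0.015). At 2 h 2 fell and 0 rose, at 4 h 1 rose and 2 fell (1 after median centring), and at 8 h 1 rose and 0 fell (2 rose after median centring), with medians of -0.09, -0.02 and -0.06. At an unadjusted p under 0.05, 0 were higher on withdrawal, 0 higher at 2 h, and 1 lower at 8 h. The second probe set of Apaf1, another gene of the list, was called lower than on withdrawal at 2 h and 8 h (log2 -0.33 and -0.35, adjusted p = 0.0217 and 0.0172). It was not called at 4 h (-0.27, adjusted p = 0.0533). The first Apaf1 set was not called at 2 h or 8 h (adjusted p = 0.221 and 0.139). Of all tested probe sets, 11.4% were called higher and 9.67% lower on withdrawal. The shares on return were 11.9% and 14.2% at 2 h, 14.6% and 16.0% at 4 h, and 9.62% and 15.4% at 8 h. Counts of 1 or 2 in 8 show nothing particular to the list beside these shares.

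The death receptor arm had 4 of 11 members tested, while Fas, Tradd and Tnfrsf10b were among those not tested. Casp8, the caspase that cleaves BID, was 1.77-fold lower on withdrawal, at 82.1 ± 8.15 against 145 ± 13.9 in controls (adjusted p = 0.000347). It was 1.41-fold above withdrawal at 4 h (adjusted p = 0.00846) and 1.61-fold at 8 h (adjusted p = 0.00124). Its second probe set was lower on withdrawal too (log2 -0.47, adjusted p = 0.0109), but was not called at 4 h or 8 h of return (0.02 and -0.05) and was lower at 8 h than in controls (-0.52, adjusted p = 0.00952), where the first set was not called (adjusted p = 0.548). Tnfrsf1a, a receptor for tumour necrosis factor, was 1.53-fold above withdrawal at 4 h (adjusted p = 0.00223). These were 1 of 4 lower on withdrawal, 2 of 4 higher at 4 h and 1 of 4 higher at 8 h (2 after median centring), and 0 of 4 were called at 2 h, nor passed an unadjusted p of 0.05 there. With so few genes tested, the shares of all tested probe sets beside these are 9.67% lower on withdrawal, 14.6% higher at 4 h and 9.62% higher at 8 h.

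Outer membrane partners and regulators of BAX or BAK had 11 of 12 members tested. On withdrawal 0 were called (2 were lower at an unadjusted p under 0.05), and the nearest was Bag1 (1.10-fold lower, adjusted p = 0.0801). At 4 h of return 1 rose and 3 fell (2 after median centring). Bag3, a co-chaperone that binds BCL2 family proteins, rose 1.81-fold at 4 h, from 171 ± 13.0 to 311 ± 21.0 (adjusted p = 2.43e-06), and stood 1.25-fold above withdrawal at 8 h (adjusted p = 0.0123). Vdac2, the channel protein that binds BAK, fell 1.21-fold at 4 h (adjusted p = 0.000565). At 2 h 1 fell, Fkbp8 (1.20-fold, adjusted p = 0.0197), which anchors BCL2 at mitochondria, and at 8 h 1 rose and 2 fell (1 fell after median centring or quantile normalization, under both of which Bag3 was also called higher at 2 h). The second Mtch2 probe set was called higher than on withdrawal at 2, 4 and 8 h (log2 0.40, 0.33 and 0.26), and its first was not. The second Vdac1 probe set was called lower at 2 h (log2 -1.23, adjusted p = 0.0281), its first not (0.0852). The list's medians were -0.04 on withdrawal and 0.00, -0.11 and 0.02 at the 3 return times. Among all tested probe sets, 11.4% and 9.67% were called higher and lower on withdrawal, and 11.9% and 14.2% at 2 h. These shares were 14.6% and 16.0% at 4 h, and 9.62% and 15.4% at 8 h. Counts of 0 to 3 in 11 show nothing particular to the list beside them.

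Genes that set the stability of the MCL1, BIK and BIM proteins had 6 of 8 members tested. On withdrawal 2 rose: Huwe1, a ubiquitin ligase for MCL1, 1.20-fold (adjusted p = 0.00425) and Fbxw7, another, 1.19-fold (adjusted p = 0.0436), while further probe sets of both were not called. At 2 h 1 rose and 1 fell, at 4 h 1 rose and 1 fell, and at 8 h 1 fell. Of all tested probe sets, 11.4% were called higher on withdrawal. On return 11.9% and 14.2% were called higher and lower at 2 h, 14.6% and 16.0% at 4 h, and 15.4% lower at 8 h. Counts of 1 or 2 in 6 show nothing particular to the list. The 2 h fall, of Huwe1, was lost after median centring or quantile normalization, and the 4 h fall, of Btrc, after median centring. Mapk8, a stress kinase that phosphorylates MCL1 and BIM, rose 1.31-fold at 2 h (adjusted p = 0.00594). Btrc, a ubiquitin ligase subunit for phosphorylated BIM, was 1.29-fold below withdrawal at 8 h (adjusted p = 0.00618), while its second probe set was not called (adjusted p = 0.233).

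Inhibitors of apoptosis had 6 of 8 members tested and 1 call in the 5 comparisons, with 1 more (Tmbim6, higher at 8 h than on withdrawal) after median centring. Over the 5 comparisons, 4.83% to 14.6% of all tested probe sets were called higher and 7.49% to 16.0% lower. Whether so few calls differ from these shares was not tested. Api5 was 1.12-fold higher at 4 h of return than on withdrawal (adjusted p = 0.0191), while its second probe set was not called (adjusted p = 0.152). On withdrawal 0 were called, with 1 lower at an unadjusted p under 0.05, and the list median was -0.09. The second Api5 probe set was lower there (log2 -0.25, adjusted p = 0.0447), while the first was at 0.02 (adjusted p = 0.85). Birc5, which encodes survivin, was 881 ± 144 in controls and 769 ± 116 on withdrawal (adjusted p = 0.268). At 2 h and at 8 h against withdrawal 0 were called, with 1 higher at an unadjusted p under 0.05 in each.

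At 8 h of return against control, where 4.83% of all tested probe sets were called higher and 7.49% lower, 4 of the 8 lists had 0 calls by the probe set with the highest mean: the mitochondrial machinery, the inhibitors of apoptosis, the death receptor arm and the stability genes. Lists of 4 to 8 tested genes would hold few calls at those shares. At an unadjusted p under 0.05 those 4 had 2, 0, 0 and 1 members lower and 0 higher. The transcription factors, the BAD kinases and 14-3-3 proteins, and the outer membrane partners had 1 call each: Stat5b, Sfn and Vdac3, a channel protein that was 1.13-fold lower (adjusted p = 0.00953). After median centring or quantile normalization the second of these lists had 2. The other BCL2 family list had 2 calls, Bcl2l2 higher and Becn1 lower (1.13-fold, adjusted p = 0.00481).

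The genes whose log2 values ran most like those of Bik over the 15 arrays, among 8952 other named genes, were Bnc2 (Pearson r = 0.97), Prkar2a (0.97), Fam114a2 (0.95), Ppp2r5d (0.95) and Ccng1 (0.95). Ccng1, for example, averaged 786 in controls, 1441 on withdrawal, 1146 at 2 h, 759 at 4 h and 719 at 8 h. The genes running most opposite to Bik were Bin2 (-0.97), Naaa (-0.97), Cbfb (-0.97), Tmem54 (-0.97) and Kcmf1 (-0.96). Bin2 averaged 536 in controls, 316 on withdrawal, 371 at 2 h, 705 at 4 h and 604 at 8 h. The 15 arrays share the 5 group means, so these values describe a common course over the groups and are not a test.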

How the data were processed

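The values are those the authors deposited: intensities per probe set on a linear scale, 1 column per array, with GCRMA and Partek 6.3 named in the submitters' processing notes without role or order. GCRMA in general estimates background from probe sequence, so low values depend on that estimate. Its settings were not given in the sources used here. Deposited intensities were taken to log2 here without further normalization. Gene names came from the platform annotation, with list and marker genes updated through a RefSeq table (GRCr8), where 20764 of 20832 probe sets with 1 symbol matched. Tests took the probe sets that reached log2 4 on at least 3 of 15 arrays and were not among the 57 controls (15856 of 31099).

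A limma fit (version 3.58.1, R 4.3.3, lmFit and eBayes with a trend on intensity) of 5 group means used all 15 arrays, which share the estimate of spread. Its two-sided p-values were adjusted over the tested probe sets of a comparison (Benjamini-Hochberg, threshold 0.05). Each SD is of 3 arrays, in intensity units, and SE and intervals (95%) come from the fit on the log2 scale. The labels call the cultures independent. The number of arrays limits the precision. A gene with several tested probe sets was read from the one with the highest mean. Members, the pathway and marker lists and the motifs were chosen with earlier results of these data known. The rule for named genes took all members and, from each list and comparison, at most 4 called genes, ranked by adjusted p, and at most 2 uncalled ones where no gene passed; a selection of these is given. Likeness to the member with the widest range took the 5 highest and 5 lowest correlations.

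Alternatives were other filters, a floor, median centring, quantile normalization, no trend, array weights, only the groups compared, the replicate number as a block, the mean of a gene's probe sets, no multi-transcript probe sets, a mesenchymal marker covariate, each array left out, and 3 arrays left out together. Motifs were counted and figures drawn in Python 3.11.15 with matplotlib 3.10.9. The fit was tested on simulated data.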

Additional observations from a re-analysis of the deposited data

How the results depend on the processing

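Of the single-gene values recomputed under the alternatives, 624 kept their direction and side of the threshold, 21 lost the threshold, 7 gained it and 8 changed sign without a call on either side; no called value changed sign. The 8 were small differences of Bbc3 (at 4 h against withdrawal) and Bcl2l1, with values from -0.0941 to 0.0368 on the log2 scale after the change. The lost calls were of Bid and Bcl2l11 and the gained ones of Bid, Bbc3 and Bcl2l1. With only the groups compared in the fit, 2166 probe sets were called on withdrawal against control in place of 3342, 1241 at 8 h against control in place of 1953, and 0 members in the latter in place of 1. With 3 arrays left out together, 3 members were called at 4 h against withdrawal in place of 5. With each array left out in turn, members called ranged from 3 to 5 at 4 h against withdrawal and from 0 to 1 at 8 h against control. Fewer arrays entered each of these fits. Whether replicate numbers pair the cultures was not settled by correlating the arrays' deviations from their group means. Arrays of the same number correlated over 0.1 in 8 of 30 pairs (from -0.138 to 0.389, mean 0.055). Those of different numbers did so in 10 of 60 pairs (from -0.33 to 0.358, mean -0.028). With the replicate block, 3520 probe sets were called on withdrawal and 4129 at 8 h against withdrawal, and Bbc3 passed at 8 h against withdrawal (adjusted p = 0.0424), as it did with array weights (0.0205), a filter at log2 6 (0.0435) and the 3 arrays left out (0.0437). Bcl2l11 at 4 h also lost its call with no filter (adjusted p = 0.0764), a floor at log2 4 (0.0527), only the groups compared (0.06) and the mesenchymal covariate (0.0888), and with 3 arrays left out together it lost its F call (0.0549). The mean of both probe sets gave Bid a call at 8 h against withdrawal (0.00322) and Bcl2l1 an F call (0.048). The cause of these changes was not tested. Genes under the low-value level, Bcl2 and Bak1 among the members, cannot be judged from these arrays.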
